A study of Mus musculus with 4 samples.

Results

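Matrix metalloproteinases (MMPs) and their tissue inhibitors (TIMPs) were followed at the tenotomy site 7 days after burn/tenotomy (BT), the injury that leads to heterotopic ossification (HO) in mice. The 10 members were Mmp2, Mmp3, Mmp11, Mmp13, Mmp14, Mmp19, Mmp23, Timp1, Timp2 and Timp3, taken by symbol, and all 10 were listed in each of the 4 samples, among 32285 genes in the single-cell RNA sequencing (scRNA-seq) libraries and 19465 genes in the Visium sections. The question was which cells of the injured site carry these transcripts and where in the tissue they lie. The scRNA-seq libraries came from mice labelled Hoxa11CreER;ROSA-LSL-TdTomato;Hif1a fl/fl, given tamoxifen at 75 mg/kg daily for 5 days before BT. Hoxa11CreER is used to label, and here to delete Hif1a in, mesenchymal cells of the limb segment at the tenotomy site, and the other cells of the unsorted suspension keep the gene. The pooled library held replicates 1 and 2 and the other library held replicate 3. Every comparison below is between cell classes of the same mice, since no library of another genotype was analysed here. The Visium sections A1 and B1 came from male wild-type C57BL/6 mice of 10 weeks, also 7 days after BT, and the labels do not say whether they are 2 mice. The cells and sections thus differ in genotype as well as in assay, and levels were not compared between them.

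MMPs are zinc-dependent enzymes that cleave collagens and other matrix proteins, and TIMPs bind their active sites. MMP-14, anchored in the cell membrane, cuts collagen and, with TIMP-2 as a bridge, activates the gelatinase MMP-2. MMP-13 is the collagenase best known from mouse bone and cartilage, and MMP-3 is a stromelysin that cuts proteoglycans and other proteins and can activate other MMPs. TIMP-1 and TIMP-2 are soluble, while TIMP-3 stays bound to the matrix.

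Mmp3 and Mmp13 are shown first, because their transcripts were the most unevenly spread of the 10 over the mesenchymal cells, where the 10% of cells with most of each held 92.4% and 83.7% of the Mmp3 UMIs and 96.0% and 98.7% of the Mmp13 UMIs in the 2 libraries, against at most 66.9% for any other member. Both lie on the + strand of chromosome 9 (GRCm38, GENCODE vM21), Mmp13 at 7272514 to 7283331 and Mmp3 at 7445822 to 7455975, with 162490 bases between them, in a cluster of 9 listed Mmp genes. The promoter stretches, from RefSeq (GRCm38.p6), run from 250 bases before to 50 bases after the start of the gene, at chr9:7445572-7445871 for Mmp3 and chr9:7272264-7272563 for Mmp13. Capitals mark TGANTCA, where N is any letter, a pattern that covers the letters AP-1 factors are known to bind. They also mark TATAAA, the letters of the TATA box of core promoters. Whether TATAAA serves as that box here was not tested.
Mmp3: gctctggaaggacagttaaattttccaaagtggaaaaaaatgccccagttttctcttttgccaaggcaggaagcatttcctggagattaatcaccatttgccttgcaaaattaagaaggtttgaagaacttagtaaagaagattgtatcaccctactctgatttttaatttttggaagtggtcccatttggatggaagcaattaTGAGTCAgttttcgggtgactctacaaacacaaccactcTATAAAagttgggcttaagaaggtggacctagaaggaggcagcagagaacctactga
Mmp13: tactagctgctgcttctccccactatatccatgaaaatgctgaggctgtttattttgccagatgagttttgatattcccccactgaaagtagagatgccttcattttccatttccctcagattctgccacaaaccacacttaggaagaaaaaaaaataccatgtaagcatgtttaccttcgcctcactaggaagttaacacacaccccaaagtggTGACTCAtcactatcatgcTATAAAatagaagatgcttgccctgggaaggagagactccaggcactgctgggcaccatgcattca
The TGANTCA match began 46 bases before the annotated start of Mmp3 and 35 bases before that of Mmp13, and TATAAA began 7 and 16 bases before it. TGANTCA reads the same on both strands, and TATAAA was searched on the strand of the gene. TGANTCA was in 7.81% of 32851 promoters of that length, TATAAA in 8.32% and both in 0.995%. Of the 8 members with a promoter entry, Mmp3 and Mmp13 held both and the other 6 held neither. These matches describe letters and are not evidence of binding.

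Cells were assigned to classes by fixed marker lists that contained no member. The 1276 and 795 cells kept in the pooled library and in replicate 3 held 356 and 279 mesenchymal cells, 170 and 86 macrophages, 107 and 36 T or NK cells, 98 and 54 smooth muscle cells or pericytes (called mural cells here), 89 and 50 endothelial cells, 55 and 31 keratinocytes and 31 and 22 Schwann cells, and 289 and 186 cells stayed outside every class. The libraries shared 1 cell barcode. The mesenchymal cells were the deepest class, with medians of 42223 and 44599 UMIs (unique molecular identifiers, counted transcripts) per cell, against 12108 and 15110 UMIs in macrophages, so levels are given as CPM, the counts of a class scaled to its own total of UMIs, not as shares of cells. The summed mesenchymal markers stood at 0.22% and 1.05% of their mesenchymal level in macrophages, 0.23% and 0.20% in endothelial cells, 0.09% and 0.11% in keratinocytes, 4.86% and 6.2% in Schwann cells and 10.5% and 10.4% in mural cells. What part of these came from free RNA, doublets or expression by the cells was not tested, and the members are set beside them below. The 3' tags of Hif1a, at 470 and 370 CPM in mesenchymal cells, do not check the deletion.

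Mesenchymal cells carried most of the transcripts of these 10 members. In the test of mesenchymal cells against the mean of the other 6 classes, 10 of 10 members were higher in mesenchymal cells, where 32.1% of the 12144 genes tested were higher and 44.7% differed in either direction (edgeR quasi-likelihood test, adjusted p under the threshold of 0.05). The median log2 fold change was 5.40 over the members and 0.15 over all genes tested. The members were chosen with earlier results of these data known. Counts of members, here and below, thus describe the chosen genes and are not independent support. Of the other MMPs, 1 of 5 tested was higher in mesenchymal cells. For 3 of the 10, Mmp11, Mmp19 and Timp3, another class had a higher level than the mesenchymal cells, and the test describes only the mean over the others. The classes of 1 library come from the same mice, and n is 2 libraries throughout.

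Mmp2, Mmp14 and Timp2 were among the abundant members. Mmp2 had 1359 and 1419.9 CPM in mesenchymal cells of the pooled library and replicate 3, against 58.6 and 68.6 CPM in endothelial cells, 112 and 33.8 CPM in Schwann cells and 2.52 and 21.5 CPM in macrophages. It was 12.1 and 20.7 times the next-highest class (log2 fold change 5.86 ± 0.22 SE against the mean of the others, adjusted p = 2.52e-13, edgeR). Of the 29 macrophage UMIs of Mmp2 in replicate 3, 17 were in 1 cell. Mmp14 had 861 and 907 CPM in mesenchymal cells, against 242 and 175 CPM in macrophages, 219 and 239 CPM in mural cells and 149 and 137 CPM in endothelial cells (log2 fold change 3.68 ± 0.13 SE, adjusted p = 8.66e-14). Timp2 had 2148 and 2099 CPM in mesenchymal cells, against 472 and 712 CPM in macrophages and 432 and 394 CPM in mural cells (log2 fold change 3.89 ± 0.14 SE, adjusted p = 9.45e-14). Mesenchymal cells had the highest level of these 3 genes in both libraries. Mmp14 and Timp2 were carried at lower levels by every class except T or NK cells and keratinocytes, whereas Mmp2 stayed at or below 8.25% of its mesenchymal level elsewhere. The endothelial levels of Mmp14 and Timp2 were 13.2% to 17.3% of the mesenchymal levels, where the mesenchymal markers stood at or below 0.23%.

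**Figure D1:**
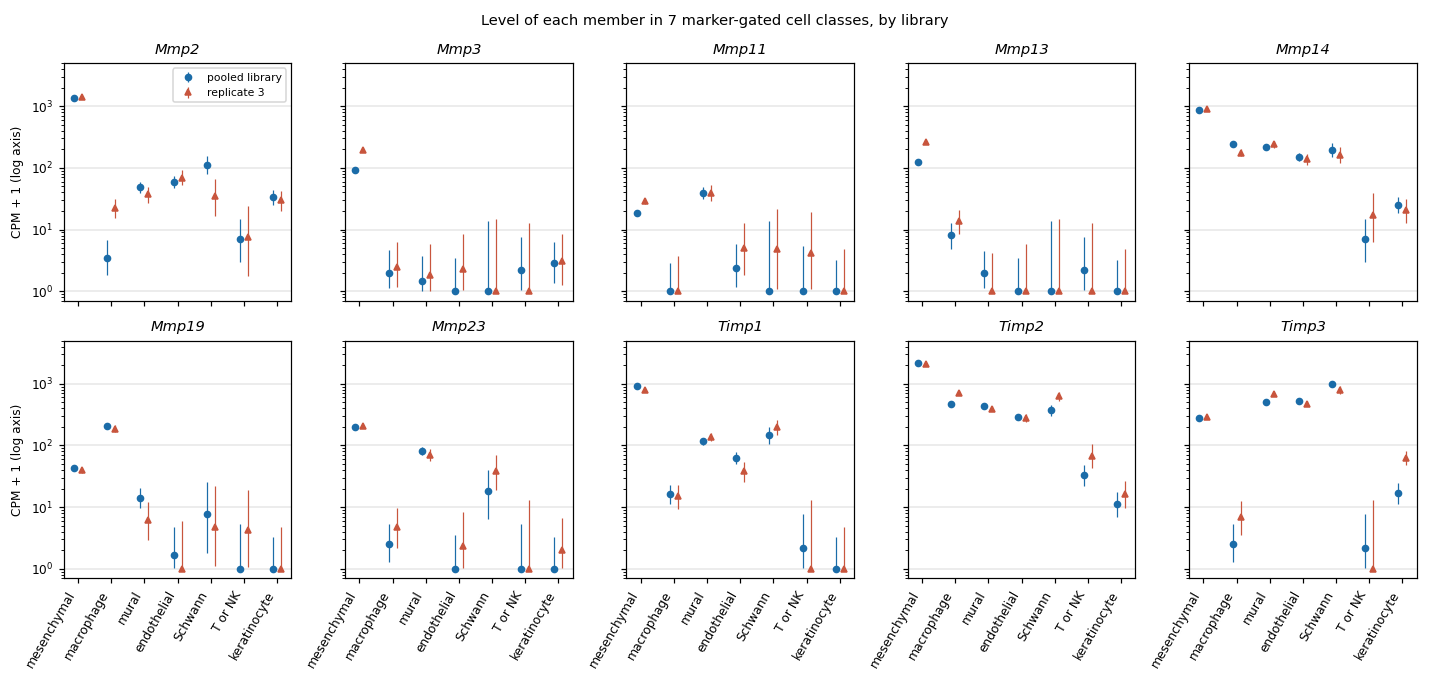
Level of each member (CPM + 1, log axis) in 7 cell classes, with 1 point per library (circle, pooled library; triangle, replicate 3) and bars for the exact 95% Poisson interval of the count. Mesenchymal cells are highest for 7 of the 10 genes, macrophages for Mmp19 (205 and 187 CPM), mural cells for Mmp11 (38.4 and 37.9 CPM) and Schwann cells for Timp3 (991 and 789 CPM).

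The collagenase and the stromelysin were low outside the mesenchymal cells. Mmp13 had 122 and 262 CPM in mesenchymal cells, against 7.06 and 12.6 CPM in macrophages and at most 1.19 CPM in any other class, with no UMI in endothelial cells, keratinocytes or Schwann cells of either library. The 14 and 17 macrophage UMIs lay in 5.88% and 5.81% of the macrophages, 12 of the 17 in 1 cell. Mmp3 had 93.0 and 192 CPM in mesenchymal cells, against at most 2.05 CPM in any other class. Both genes differed about 2-fold between the libraries, replicate 3 being higher. The counting intervals of the libraries did not overlap, but they treat each UMI as independent. In replicate 3, 1 mesenchymal cell held 694 UMIs of Mmp13. Whether the libraries differ beyond the spread between cells was not tested. Where a class held no UMI, the fitted fold depends on how the 0 is handled, so the ratio to the next-highest class is given instead: 17.4 and 20.8 for Mmp13, and 50.7 and 93.4 for Mmp3 (adjusted p = 9.21e-13 and 3.82e-14, edgeR).

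Of the other enzymes, Mmp23, a small membrane-anchored MMP, had 201 and 209 CPM in mesenchymal cells, against 80.1 and 69.8 CPM in mural cells and 17.0 and 37.6 CPM in Schwann cells (adjusted p = 2.68e-13). Mmp11, stromelysin-3, had 17.4 and 28.3 CPM in mesenchymal cells, against 38.4 and 37.9 CPM in mural cells and at most 3.96 CPM in endothelial cells. Its mural level was 221% and 134% of the mesenchymal level, where the mesenchymal markers stood at about 10.5%. Mmp19 had 41.9 and 38.7 CPM in mesenchymal cells, against 205 and 187 CPM in macrophages.

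Among the inhibitors, Timp1 had 912 and 799 CPM in mesenchymal cells, against 146 and 199 CPM in Schwann cells, 115 and 138 CPM in mural cells and 15.1 and 14.1 CPM in macrophages, a ratio to the next class of 6.25 and 4.01 (adjusted p = 1.07e-14). Timp3 followed another order. It had 274 and 285 CPM in mesenchymal cells, against 991 and 789 CPM in Schwann cells, 509 and 672 CPM in mural cells, 528 and 476 CPM in endothelial cells and 1.51 and 5.92 CPM in macrophages. Mural and endothelial cells did not keep the same order in the 2 libraries, while Schwann cells were highest and macrophages and T or NK cells lowest in both.

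By counts rather than concentration, mesenchymal cells held 56.9% and 63.8% of all UMIs of the kept cells, those outside every class included. They held 97.5% and 98.2% of Mmp2, 99.1% and 97.3% of Mmp3, 98.9% and 99.4% of Mmp13, 96.2% and 94.3% of Timp1 and 91.0% and 91.5% of Timp2. The shares were lowest for Mmp19, at 52.1% and 54.9%, with 34.8% and 29.0% in macrophages, and for Timp3, at 62.7% and 70.1%. These shares move with the number and depth of the cells recovered in each class.

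The mesenchymal cells were then split by 2 marker lists without members: a tenogenic or osteochondral list (Scx, Tnmd, Mkx, Kera, Fmod, Thbs4, Sox9, Acan, Runx2) and a fibroblast list (Pi16, Dpp4, Cd34, Ly6a, Clec3b, Crabp1, Coch, Ly6c1). This gave 196 and 140 tenogenic or osteochondral cells, 78 and 80 fibroblast cells, and 82 and 59 between them. The tenogenic or osteochondral cells were deeper, with medians of 49909.5 and 48706 UMIs per cell, against 27615 and 35641.5 UMIs in the fibroblast cells. The 2 parts carried different MMPs: Mmp13, Timp1 and Timp2 were higher and Mmp3, Mmp19 and Timp3 lower in the tenogenic or osteochondral cells. These 6 of 10 members compare with 17.3% of 12578 genes in either direction, 7.13% higher and 10.2% lower (edgeR).

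Mmp13 had 143 and 356 CPM in tenogenic or osteochondral cells, against 8.53 and 11.2 CPM in fibroblast cells (log2 fold change 4.61 ± 0.27 SE, adjusted p = 4.16e-09). Mmp3 went the other way, with 5.81 and 14.1 CPM in tenogenic or osteochondral cells, against 382 and 751 CPM in fibroblast cells (log2 fold change -5.86 ± 0.20 SE, adjusted p = 2.60e-12). Mmp19 had 24.0 and 16.4 CPM in tenogenic or osteochondral cells, against 78.1 and 70.8 CPM in fibroblast cells (log2 fold change -1.89 ± 0.21 SE, adjusted p = 2.44e-06). These 3 genes kept their direction in both libraries, and the collagenase and the stromelysin were each low in the part where the other was high.

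The inhibitors differed less. Timp1 had 980 and 986 CPM in tenogenic or osteochondral cells, against 626 and 540 CPM in fibroblast cells (log2 fold change 0.76 ± 0.18 SE, adjusted p = 0.00591). Timp2 had 2540 and 2570 CPM in tenogenic or osteochondral cells, against 1494 and 1511 CPM in fibroblast cells (log2 fold change 0.77 ± 0.19 SE, adjusted p = 0.00809). Timp3 had 203 and 208 CPM in tenogenic or osteochondral cells, against 419 and 462 CPM in fibroblast cells (log2 fold change -1.09 ± 0.28 SE, adjusted p = 0.00895), but the median fibroblast cell had 203 and 68.8 CPM, against 144 and 148 CPM in the median tenogenic or osteochondral cell, so in replicate 3 the difference was in the upper tail of the cells. The Timp3 call was not met with DESeq2 (adjusted p = 0.0928).

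The other 4 members did not pass the threshold. Mmp14 had 928 and 1035 CPM in tenogenic or osteochondral cells, against 649 and 732 CPM in fibroblast cells (log2 fold change 0.51, 95% interval 0.15 to 0.86, adjusted p = 0.065), and it passed with the stricter gate (adjusted p = 0.0179) and without the filter on low counts (adjusted p = 0.0313). Mmp2 had a log2 fold change of -0.05 (95% interval -0.62 to 0.53, adjusted p = 0.96), Mmp23 of -0.19 (95% interval -0.54 to 0.16, adjusted p = 0.56) and Mmp11 of -0.56 (95% interval -1.16 to 0.04, adjusted p = 0.26). The intervals for Mmp2 leave room for differences of about 1.5-fold in either direction.

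**Figure D2:**
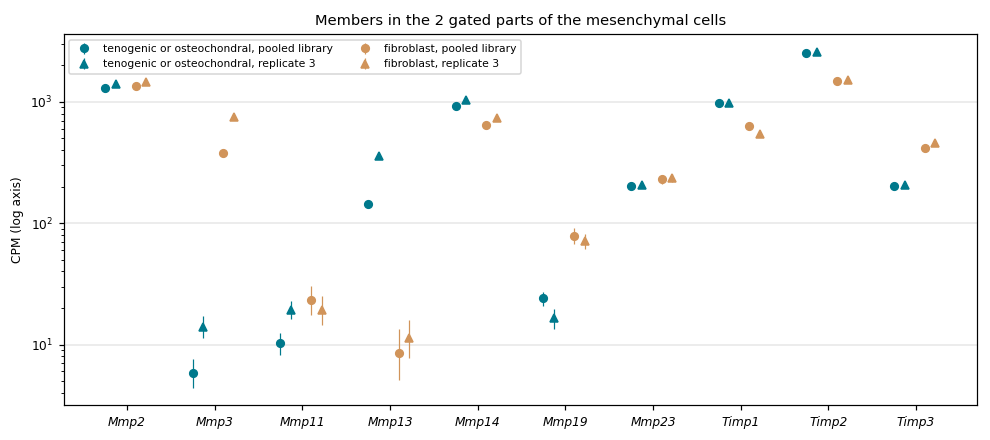
Level of each member (CPM, log axis) in tenogenic or osteochondral cells (left of each pair) and fibroblast cells (right), with 1 point per library (circle, pooled library; triangle, replicate 3) and exact 95% Poisson intervals of the counts. Mmp3 is 382 and 751 CPM in fibroblast cells and Mmp13 is 143 and 356 CPM in tenogenic or osteochondral cells, while Mmp2 overlaps between the parts.

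Over all mesenchymal cells, most of the Mmp3 and Mmp13 UMIs lay in a minority of cells. Cells with at least 10 UMIs of Mmp3 numbered 30 of 356 and 44 of 279 mesenchymal cells and held 88.9% and 94.0% of its mesenchymal UMIs, with up to 180 and 279 UMIs in 1 cell. Cells with at least 10 UMIs of Mmp13 numbered 32 and 25 and held 94.1% and 98.1% of its UMIs, with up to 239 and 694 in 1 cell. The limit of 10 UMIs was set after the values were seen. Of the Mmp3-rich cells, 21 and 34 were fibroblast cells (of 78 and 80 in that part, whose median cell had 31.0 and 294 CPM) and 1 and 3 tenogenic or osteochondral cells. Of the Mmp13-rich cells, 20 and 20 were tenogenic or osteochondral cells, 12 and 3 lay between the parts, and 0 and 2 were fibroblast cells. In all, 3 and 4 cells were rich for both genes. Mmp13 stood at 250.5 and 277 CPM in the Mmp3-rich cells, against 112 and 259 CPM in the other mesenchymal cells, and Mmp3 stood at 154 and 69.6 CPM in the Mmp13-rich cells, against 86.2 and 205 CPM, so over single cells neither gene was low in both libraries where the other was rich. The median depth of the rich cells was 36806 and 43775 UMIs for Mmp3, against 42793 and 45789 UMIs in the other mesenchymal cells, and 45159 and 47687 UMIs for Mmp13, against 42013 and 44579 UMIs. By contrast, Mmp2 had a UMI in 95.8% and 97.5% of the mesenchymal cells, and the 10% of cells with most of it held 26.4% and 23.5% of its UMIs.

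The rich cells also differed in other genes, which were chosen after their values were seen and carry no test. The Mmp3-rich cells had 1112 and 671 CPM of C3, the third complement component, against 173 and 71.4 CPM in the other mesenchymal cells, and 206 and 138 CPM of Gdf10, a TGF-beta family ligand, against 25.2 and 17.1 CPM. They had 15.9 and 20.2 CPM of Scx, the tendon transcription factor, against 261 and 250 CPM. The Mmp13-rich cells had 1115 and 1252 CPM of Mmp14, against 833 and 869 CPM in the other mesenchymal cells, and 1524 and 1429 CPM of Gpx3, a secreted glutathione peroxidase, against 636 and 385 CPM. Their Timp3 was 154 and 220 CPM, against 287 and 292 CPM. Scx was not raised in the Mmp13-rich cells, at 158 and 210 CPM, against 252 and 213 CPM. Sox9 stood at 221 and 115.5 CPM in them, against 171 and 103 CPM.

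**Figure D3:**
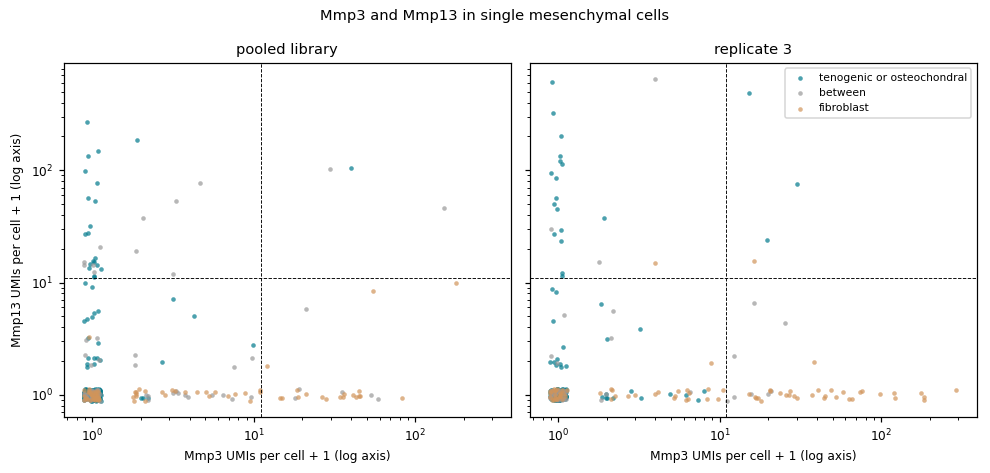
UMIs per cell + 1 of Mmp3 (horizontal, log axis) and Mmp13 (vertical, log axis) in single mesenchymal cells of the pooled library (left) and replicate 3 (right), coloured by marker-gated part and jittered slightly, with dashed lines at 10 UMIs. Beyond the Mmp3 line lie 30 and 44 cells, beyond the Mmp13 line 32 and 25 cells, and beyond both 3 and 4 cells.

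Summed over the 10 genes, the MMPs made up 44.7% and 49.0% of the MMP and TIMP UMIs of mesenchymal cells. The share was 41.3% and 44.8% in the tenogenic or osteochondral cells, against 51.7% and 56.6% in the fibroblast cells. It was 19.3% and 21.2% in endothelial cells, 27.4% and 24.4% in mural cells and 17.9% and 13% in Schwann cells. In macrophages it was 48.4% and 35.4%, and in keratinocytes, which held few UMIs of these genes, it was 69.1% and 39.7%, above the mesenchymal share in the pooled library and below it in replicate 3. The sums are of transcripts of 7 enzyme genes and 3 inhibitor genes, and say nothing of protein or activity.

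Outside the mesenchyme, macrophages were the class with most Mmp19, an MMP that cleaves basement membrane proteins. Cells outside every class held 105 and 122 of its UMIs (9.01% and 14.0%), against 406 and 253 UMIs in macrophages. In macrophages against the mean of the other 5 non-mesenchymal classes, 4 members were higher and 2 lower, where 25.2% of genes were higher and 14.3% lower. Mmp19 had 205 and 187 CPM in macrophages, against 13.1 and 5.17 CPM in mural cells, the next class (adjusted p = 7.10e-13, edgeR). It had a UMI in 46.5% and 59.3% of the macrophages, and in 41.5% and 42.9% after thinning each cell to 5000 UMIs, which left out 28 and 9 cells. The unthinned share in endothelial cells was 1.12% and 0%, at median depths of 14693 and 9052 UMIs. Mmp14 had a log2 fold change of 1.91 ± 0.16 SE (adjusted p = 1.84e-08) and Timp2 of 2.43 ± 0.16 SE (adjusted p = 5.89e-10), but for Mmp14 mural cells stood at 219 and 239 CPM, higher than macrophages in replicate 3, and for Timp2 Schwann cells stood at 370.1 and 624 CPM. Mmp13 passed on the few UMIs given above (adjusted p = 1.35e-05), but not with DESeq2 (adjusted p = 0.102). Timp3 was lower in macrophages, at 1.51 and 5.92 CPM (log2 fold change -4.62 ± 1.29 SE, adjusted p = 0.00786), and so was Mmp2 (log2 fold change -1.40 ± 0.49 SE, adjusted p = 0.0305), whose within-library differences were -3.33 and -0.11.

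Vessel cells carried Timp3 together with lower levels of several other members. In mural cells 7 members were higher and none lower, where 23.7% of genes were higher, 9.12% lower and 32.8% differed in either direction. Timp3 had a log2 fold change of 4.02 ± 0.27 SE (adjusted p = 1.69e-09), Timp2 of 1.57 ± 0.16 SE (adjusted p = 4.48e-07) and Mmp14 of 1.80 ± 0.16 SE (adjusted p = 5.81e-08). Mmp11, Mmp19, Mmp23 and Timp1 were also called (adjusted p = 2.12e-08, 0.00703, 3.42e-10 and 1.80e-09). The mesenchymal markers in mural cells, at 10.5% and 10.4% of their mesenchymal level, lie near the mural Timp1 level of 12.6% and 17.3% of its mesenchymal level, above Mmp2 at 3.47% and 2.55%, and below Mmp23 at 39.8% and 33.5%. Their part in these results was not tested. In endothelial cells 5 members were higher and none lower, where 19.3% of genes were higher, 7.99% lower and 27.3% differed in either direction. Timp3 led with a log2 fold change of 3.70 ± 0.29 SE (adjusted p = 1.06e-08), followed by Mmp2 at 1.33 ± 0.36 SE (adjusted p = 0.00969), Mmp14 at 0.92 ± 0.18 SE (adjusted p = 5.96e-04) and Timp2 at 0.85 ± 0.18 SE (adjusted p = 0.00112), with Timp1 at 62.0 and 36.9 CPM (adjusted p = 3.06e-05). With DESeq2, Mmp2 did not pass in macrophages (adjusted p = 0.0766) or in endothelial cells (adjusted p = 0.0866).

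Keratinocytes carried little of any member. In them 4 members were lower and none higher, where 16.2% of genes were lower and 40.1% differed in either direction. Timp2 had 10.4 and 15.4 CPM (log2 fold change -4.17 ± 0.28 SE, adjusted p = 1.37e-09) and Mmp14 had 24.5 and 19.5 CPM (log2 fold change -1.91 ± 0.24 SE, adjusted p = 4.52e-06). Timp1 and Mmp19 had 0 UMIs in 55 and 31 keratinocytes, which allows up to 1.83 and 3.08 CPM (adjusted p = 2.15e-04 and 0.00813).

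Genes that work with the MMPs were counted from lists of the same pathway. In mesenchymal cells, 11 of 12 cathepsins and collagen-uptake genes were higher and 1 lower, 17 of 20 tested ADAM and ADAMTS proteinases were higher and 2 lower, 10 of 13 activators and partners were higher, 3 of 5 other inhibitors were higher and 1 of 5 other MMPs was higher, where 32.1% of all genes were higher and 12.6% lower. Ctsk, the cysteine proteinase cathepsin K, had 682 and 791 CPM in mesenchymal cells, against 183 and 209 CPM in mural cells (log2 fold change 6.19 ± 0.15 SE, adjusted p = 8.60e-16). Mrc2, the collagen uptake receptor Endo180, had 168 and 185 CPM in mesenchymal cells, against 27.7 and 33.6 CPM in mural cells (adjusted p = 8.55e-14). Fap, a serine proteinase of activated fibroblasts, had 45.8 and 73.9 CPM in mesenchymal cells, against 47.1 and 64.6 CPM in mural cells, so it did not separate these classes. Reck, a membrane-anchored MMP inhibitor, had 22.1 and 22.4 CPM in mesenchymal cells, against 47.5 and 41.3 CPM in Schwann cells (adjusted p = 3.54e-08 against the mean of the others). Bsg, known as an inducer of MMPs, had 601 and 599 CPM in mesenchymal cells, against 543 and 477 CPM in Schwann cells (log2 fold change 1.39 ± 0.11 SE, adjusted p = 7.39e-09).

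In the tenogenic or osteochondral cells, 9 of 20 ADAM and ADAMTS genes were lower and 1 higher, 6 of 13 activators and partners were lower and 2 higher, 1 of 12 cathepsins and collagen-uptake genes was lower, and 1 of 5 other inhibitors was lower and 1 higher, where 10.2% of all genes were lower and 7.13% higher. Adamts5, an aggrecan-cleaving enzyme, had 29.9 and 27.1 CPM in tenogenic or osteochondral cells, against 296 and 283 CPM in fibroblast cells (log2 fold change -3.34 ± 0.26 SE, adjusted p = 3.91e-08), and Adamts15 had 7.31 and 20 CPM, against 85.3 and 58.6 CPM (log2 fold change -2.43 ± 0.36 SE, adjusted p = 1.33e-04). Timp4, the fourth TIMP, was almost only in vessel cells, with 63.4 and 124 CPM in endothelial cells and 49.5 and 23.3 CPM in mural cells, against at most 0.1 CPM in mesenchymal cells (adjusted p = 2.94e-07 for endothelial cells and 1.09e-05 for mural cells). Serpine2, an inhibitor of serine proteinases, had 2008 and 1973 CPM in mural cells, against 306 and 334 CPM in Schwann cells, the next non-mesenchymal class (adjusted p = 2.97e-13). In macrophages, Ctss, cathepsin S, had 2354 and 1664 CPM, against 77.4 and 87.1 CPM in T or NK cells (adjusted p = 2.36e-13), and Plaur, the urokinase receptor, had 295 and 201 CPM, against 88.6 and 40.9 CPM in endothelial cells (adjusted p = 1.85e-11).

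In the sections, sets of spots were taken where the markers of 1 tissue, summed over a spot and its neighbours, were in excess of the section, a rule formed after the spots were seen. Each spot holds several cells, so fewer cells of a type and less RNA per cell cannot be told apart. The sets in A1 and B1 held 91 and 103 tendon spots, 38 and 55 wound mesenchyme spots (Postn, Tnc, Col12a1, Cthrc1, Aspn, Fbn2, Lrrc15), 101 and 125 bone spots, 243 and 182 cartilage spots, 671 and 212 skeletal muscle spots, 27 and 24 adipose spots, 48 and 229 inflammatory myeloid spots and 118 and 186 epidermal spots, of 3555 and 3195 spots in all. The median depth of a spot was 454 and 516 UMIs over the sections, and 1596 and 1392 UMIs in tendon spots. Of the members, 9 of 10 passed the filter on low counts among 4747 genes, and Mmp19, with 32 and 52 UMIs per section, did not.

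Bone spots were marked by Mmp13. It had 471 and 353 CPM (36 and 34 UMIs) in bone spots, against 200 and 42.6 CPM in cartilage spots, 61.1 and 60.3 CPM in skeletal muscle spots and 104 and 48.2 CPM in tendon spots (log2 fold change 2.83 ± 0.34 SE against the mean of the other 7 sets, adjusted p = 1.51e-11, edgeR). It was the 1 member called in bone, where 2.99% of genes were higher, 0.843% lower and 3.83% called in either direction. Bone spots held 13.5% and 25.6% of the Mmp13 UMIs on 3.39% and 4.18% of all UMIs. With distance from the bone spots of A1, Mmp13 was 208 CPM at 1 spot step, 127 CPM at 2, 165 CPM at 3 to 4, 152 CPM at 5 to 8 and 66.7 CPM at 9 steps or more. In B1 it was 162, 85.9, 77.5, 57.5 and 32.8 CPM over the same distances. It was lower at each further distance in B1, and in A1 it was higher again at 3 to 8 steps than at 2. Mmp9, the gelatinase of osteoclasts and neutrophils, was also high in bone spots, at 1791 and 861 CPM, against 869 CPM in cartilage spots of A1 and 843 CPM in tendon spots of B1 (log2 fold change 1.79 ± 0.20 SE, adjusted p = 2.40e-12). Ctsk had 2575 and 1266 CPM in bone spots (log2 fold change 1.40 ± 0.18 SE, adjusted p = 3.89e-10), against 1694 and 1892 CPM in tendon spots, which were higher in B1. Ctsk and Mmp9 were also called higher in tendon spots (log2 fold change 1.31 and 1.00, adjusted p = 2.04e-09 and 2.25e-04, edgeR). Mmp9 was called higher in inflammatory myeloid spots as well, at 758 and 652 CPM (log2 fold change 1.47). It was called lower in wound mesenchyme spots and epidermal spots (log2 fold change -1.13 and -1.07).

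Tendon spots carried 4 of the 9 members at higher levels, where 4.26% of genes were higher, 1.24% lower and 5.5% called in either direction. Timp1 had 214 and 458 CPM in tendon spots, against 263 and 170 CPM in cartilage spots, 65.5 and 273 CPM in wound mesenchyme spots and 39.5 and 90.4 CPM in skeletal muscle spots (log2 fold change 1.66 ± 0.28 SE, adjusted p = 3.29e-06). Timp2 had 664 and 1000.0 CPM in tendon spots, against 687 and 875 CPM in wound mesenchyme spots and 353 and 457 CPM in bone spots (log2 fold change 0.97 ± 0.19 SE, adjusted p = 1.03e-04). Mmp2 had 588 and 500.0 CPM in tendon spots, against 446 and 561 CPM in cartilage spots and 379 and 249 CPM in bone spots (log2 fold change 0.87 ± 0.21 SE, adjusted p = 0.00345). Mmp3 had 89.9 and 572 CPM in tendon spots (13 and 95 UMIs), against 34.7 and 194 CPM in epidermal spots, 65.5 and 164 CPM in wound mesenchyme spots and 52.3 and 51.9 CPM in bone spots (log2 fold change 2.19 ± 0.32 SE, adjusted p = 7.17e-08). The Mmp3 result rested mainly on section B1, with a log2 difference of 2.83 within B1 and 0.57 within A1. Mmp14, at 83.0 and 163 CPM in tendon spots, did not pass (log2 fold change 1.09, 95% interval 0.31 to 1.88, adjusted p = 0.096).

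Wound mesenchyme spots shared the high Timp2 and, below the threshold, Mmp2. Timp2 had 687 and 875 CPM in wound mesenchyme spots (log2 fold change 0.81 ± 0.21 SE, adjusted p = 0.0157), the 1 member called where 1.92% of genes were higher and 2.68% called in either direction, and the call was not met without the section block (adjusted p = 0.0721) or with the stricter gate (adjusted p = 0.0827). Mmp2 had 491 and 538 CPM (log2 fold change 0.74, 95% interval 0.26 to 1.22, adjusted p = 0.073). In cartilage spots Mmp2 was higher (log2 fold change 0.77 ± 0.22 SE, adjusted p = 0.0247), as was Timp1 (log2 fold change 1.12 ± 0.30 SE, adjusted p = 0.0179), with 2.28% of genes higher and 2.84% called in either direction. The Timp1 difference was 1.73 within A1 and 0.21 within B1, and neither gene passed with DESeq2 (adjusted p = 0.225 for Mmp2 and 0.231 for Timp1) or without the section block (adjusted p = 0.103 for Mmp2 and 0.229 for Timp1). Mmp2 also missed the threshold with RLE scaling (adjusted p = 0.0659).

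**Figure D4:**
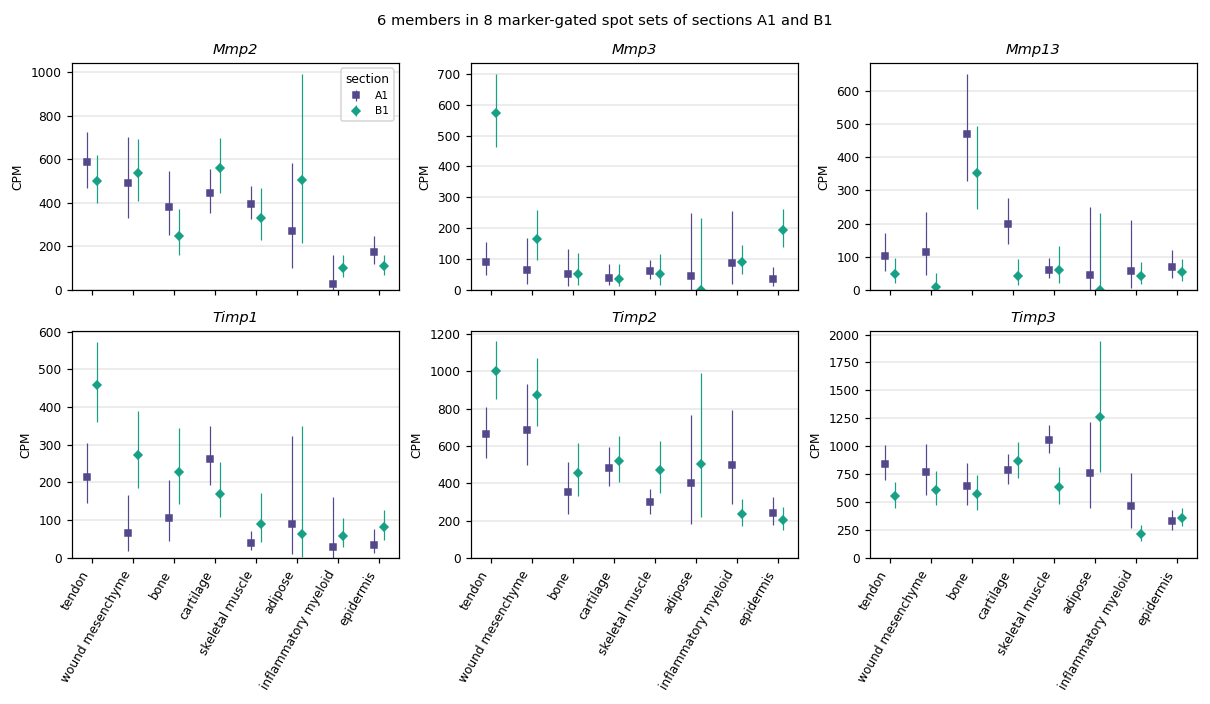
Level (CPM) of Mmp2, Mmp3, Mmp13, Timp1, Timp2 and Timp3 in 8 marker-gated spot sets of section A1 (squares) and section B1 (diamonds), with exact 95% Poisson intervals of the counts. Mmp13 is highest in bone (471 and 353 CPM), Mmp3 in tendon of B1 (572 CPM), and Timp2 in wound mesenchyme of A1 (687 CPM) and tendon of B1 (1000.0 CPM).

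Mmp2 was lower in inflammatory myeloid spots, and Mmp2 and the 3 TIMPs were lower in epidermal spots. In inflammatory myeloid spots Mmp2 had 29.2 and 102 CPM (log2 fold change -1.30 ± 0.36 SE, adjusted p = 0.00272; -2.92 within A1 and -0.89 within B1), the 1 member called where 6.78% of genes were lower and 23.3% called in either direction. In epidermal spots 4 members were lower, where 6.55% of genes were lower and 19.5% called in either direction. Mmp2 had 173 and 108 CPM there (log2 fold change -1.21 ± 0.27 SE, adjusted p = 1.96e-04), Timp2 had 243 and 203 CPM (log2 fold change -1.03 ± 0.24 SE, adjusted p = 3.07e-04) and Timp3 had 330.0 and 356 CPM (log2 fold change -0.84 ± 0.21 SE, adjusted p = 0.00148). The Timp3 call was not met without the filter on low counts (adjusted p = 0.0731). Timp1 passed narrowly (log2 fold change -1.04 ± 0.39 SE, adjusted p = 0.0453), and not without the section block (adjusted p = 0.128), without the filter on low counts (adjusted p = 0.271), with the stricter gate (adjusted p = 0.0614) or with DESeq2 (adjusted p = 0.173).

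Several members clustered in place. By the deposited Moran's I, a score of spatial autocorrelation, Timp1, Mmp13, Mmp3, Timp2 and Timp3 ranked above 98.2% of 19132 listed genes in A1 and above 96.9% of 19222 in B1. Mmp11 and Mmp14 ranked above 96.0% and 95.5% of genes in A1 and above 82.0% and 84.8% in B1. Mmp3 had a score of 0.0495 in A1 and 0.163 in B1, and Mmp19 had a score of -0.00347 in B1, which is no clustering. Moran's I can depend on how deeply a gene is covered, so these ranks are a description. Neighbourhoods with an excess of Mmp3 (Poisson upper tail under 0.0001 over a spot and its neighbours) numbered 22 in A1 and 56 in B1. In B1, 22 of them were tendon spots, 7 epidermal spots, 5 wound mesenchyme spots and 22 in no set. In A1, 1 was a tendon spot and 21 were in no set. Of all spots with at least 100 UMIs, 2127 of 3504 in A1 and 2047 of 3185 in B1 were in no set. The dense neighbourhoods held 19.1% of the Mmp3 UMIs on 1.80% of all UMIs in A1, and 45.6% on 5.27% in B1. They were picked by Mmp3 itself, so high shares follow from the rule and are no support for clustering. Mmp3 in B1 was 572 CPM in tendon spots, 543 CPM at 1 step from them, 332 CPM at 2 steps, 107 CPM at 3 to 4 steps, 58.9 CPM at 5 to 8 steps and 98.4 CPM at 9 steps or more, while in A1 it was 89.9, 107, 74.0, 118, 85.0 and 60.8 CPM over the same distances.

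Mmp13-dense neighbourhoods numbered 28 and 21, of which 11 and 18 were bone spots, and bone markers there were 2.50 and 17.0 times their level in the other spots. Timp1-dense neighbourhoods numbered 21 and 36, with 9 and 11 in tendon spots and 9 and 0 in cartilage spots. Of the Timp3-dense neighbourhoods, 33 of 35 in A1 and 63 of 64 in B1 lay in no marker set. The split of the mesenchymal cells was not tested in the sections, where a spot can hold both parts.

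**Figure D5:**
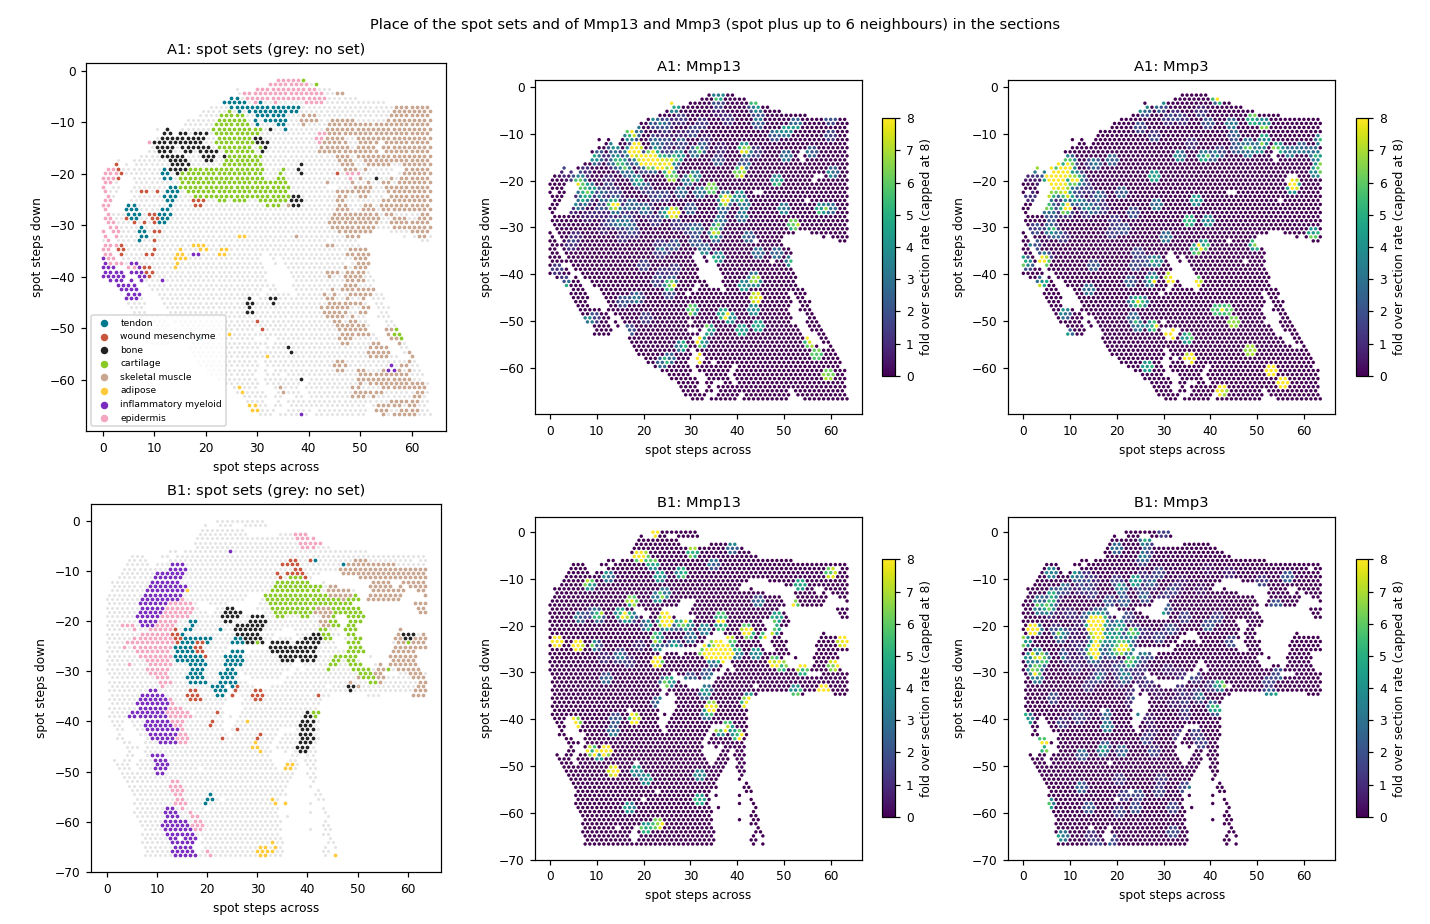
Sections A1 (top) and B1 (bottom) in spot steps, with the marker-gated spot sets (left) and the level of Mmp13 (middle) and Mmp3 (right) over each spot and its up to 6 neighbours, as a fold over the rate of the section, capped at 8. Of the dense Mmp13 neighbourhoods, 11 of 28 in A1 and 18 of 21 in B1 are bone spots, and of the dense Mmp3 neighbourhoods, 1 of 22 in A1 and 22 of 56 in B1 are tendon spots.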

How the data were processed

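Tenotomy-site tissue was collected 7 days after BT. For the 2 scRNA-seq libraries, gene by barcode matrices of unnormalised UMI counts were deposited, which per the labels came from Cell Ranger 5.0.1 with build mm10. For 2 Visium sections Space Ranger matrices of probe UMI counts were deposited, with spot positions and a Moran's I score per gene, which was used as deposited. Tamoxifen was followed by 9 days of washout per the labels. The members and gene lists were chosen with earlier results of these data known.

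Barcodes were kept if mitochondrial UMIs were 20% or less, ribosomal UMIs 5% or more and detected genes 200 or more, below a cap at the 99th percentile of UMIs and of genes (1276 of 2303 and 795 of 1266 barcodes; 31536402 and 23379476 UMIs deposited). Each cell took the class with the highest marker score, if the score was at least 0.3 and led by 0.1. No doublet caller was run, and this margin was the only guard. Of 752 cells best scored as mesenchymal, 73 lay near the limit, and 140 lay near the limit between the parts. Spots with at least 100 UMIs (3504 and 3185; 2259744 and 2308754 UMIs deposited) joined a set where marker UMIs over the spot and up to 6 neighbours had a Poisson upper tail under 0.001 and a fold of at least 2. The limits of the gates were set after the data were seen. Spots within a set overlap in their neighbours.

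Pseudobulk sums were made for each class of a library and each set of a section, where every sample gave 20 or more members. They held 266117 to 14499737 UMIs for cells and 15902 to 278316 UMIs for spots. edgeR 4.0.16 (R 4.3.3) fitted them by quasi-likelihood with TMM and its low-count filter, with library or section as block, a pairing that comes from the design. Differences between samples correlated across groups at -0.06 to 0.15. Adjusted p-values are Benjamini-Hochberg over all genes tested. In simulated data with 200 changed genes, 62% of genes changed by 1 log2 unit and 100% by 2 were recovered for mesenchymal cells (10895 genes in the step), 22% and 96.0% for the mesenchymal parts (11397 genes), and 28% and 91% for wound mesenchyme spots (4090 genes). The changed genes were drawn from those with at least 200 UMIs over the sums, and all groups otherwise shared the mean of a gene. These rates therefore do not describe members with fewer UMIs. The simulated dispersion was also set larger than the common dispersion of the fits, so the rates do not carry over to them. The square root of that common dispersion was 0.128 for cells, 0.127 for the mesenchymal parts and 0.162 for spots. Intervals of levels and shares are exact Poisson or Clopper-Pearson at 95%, and 3 counts is the limit used for a count of 0. Both reflect counting error alone. The 95% intervals of log2 fold changes are instead the estimate plus or minus a normal multiple of its SE. That SE was derived from the F statistic of the fit, and a multiple from the t distribution would give wider intervals. P-values measure the spread that the groups keep between 2 samples once the block is taken out. That spread is shared over all groups of a fit, with 6 residual degrees of freedom for cells, 7 for the mesenchymal parts and 7 for spots. It is not a measure of the spread between mice. Named genes were the members, Hif1a, Mmp8, Mmp9, Mmp10, Mmp12, Timp4, Reck, Bsg and Ctsk, and up to 4 genes per comparison with the largest change of 1 direction in both samples. Alternatives were RLE scaling, no low-count filter, no block, DESeq2 1.42.0, stricter gates, no ribosomal limit, at least 200 UMIs per spot, and leaving out each sample. Scale factors of the images were not used.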

Additional observations from a re-analysis of the deposited data

Results flagged for a closer look

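With the ribosomal limit 14 and 6 cells fell in the neutrophil gate, under the minimum of 20 cells, so Mmp9 in them lay outside the comparisons. Without that limit, 37 cells of the pooled library and 19 cells of replicate 3 fell in the neutrophil gate, 29 and 16 of them under 5% ribosomal UMIs, with medians of 3748 and 4210 UMIs. They held 960 and 1117 CPM of Mmp9 (150 and 91 UMIs), above the limits of 19.2 and 36.8 CPM that a count of 0 allows, and 166 and 123 CPM of Mmp8, the neutrophil collagenase. In mesenchymal cells Mmp9 was at 4.1 and 1.9 CPM. Among the cells kept with the ribosomal limit, 78.7% and 50% of the Mmp9 UMIs (581 and 60) lay in cells outside every class. The identity of those cells was not tested. Of the members, Timp2 stood at 275 and 61.4 CPM in these neutrophil-gate cells, and Mmp3, Mmp11, Mmp13 and Mmp23 had 0 UMIs.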

How the results depend on the processing

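No result changed direction under any alternative run. The count of members past the threshold was within 1.5 times the main count for 88 of 96 alternatives over the 12 comparisons. It was 0 for wound mesenchyme spots without the replicate block and with the stricter gate (1 in the main analysis). For cartilage spots it was 1 with RLE scaling, 0 without the replicate block and 0 with DESeq2 (2 in the main analysis). For inflammatory myeloid spots it was 4 without the low-count filter and 2 with at least 200 UMIs per spot (1 in the main analysis), and for epidermal spots 2 without the low-count filter (4 in the main analysis). The cause was not tested. The replicate block changed no other call of a member except Timp1 in epidermal spots. Counts over all genes moved most in the spots: 127 for wound mesenchyme (59 without block, 80 with DESeq2), 182 for bone (116 and 108), 135 for cartilage (62 and 46), 261 for tendon (134 and 143), and 1108 for inflammatory myeloid (2377 without filter). In that setting the median of all genes was 0.91 on the log2 scale. With 1 library or section left out no residual degrees of freedom remained, so these are values without a test, and every called member kept its direction: 10 and 10 for mesenchymal cells, 6 and 6 for the mesenchymal parts, 6 and 6 for macrophages, 5 and 5 for endothelial cells, 7 and 7 for mural cells, 4 and 4 for keratinocytes, and 1, 1, 2, 4, 1 and 4 in each section for wound mesenchyme, bone, cartilage, tendon, inflammatory myeloid and epidermal spots. The sizes were less steady than the directions. With either library left out, 21 called results moved by more than 1 SE of the main fit and 17 did not. With A1 left out, 4 moved and 9 did not, and with B1 left out, 9 moved and 4 did not. These sizes are differences of log2 CPM, computed otherwise than in the fit. Low depth limits the sections, where Mmp13 in bone rests on 36 and 34 UMIs. Classes near a gate limit, 2 libraries of 1 genotype and wild-type sections of unstated number of mice limit the rest.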
